A study of Mus musculus with 30 samples.

Results

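The genes described here are 32 markers of astrocytes, taken by symbol from the table of read counts per gene, and all 32 were found among the 51752 genes of that table. They were chosen as genes that astrocytes are known to express, and the rule that finds them uses no measured value. The list was nevertheless drawn up with earlier results of these data known. Gfap and Vim, the filament genes that rise in reactive astrocytes, are kept apart from the other 30. The 30 were sorted into 6 genes of transmitter uptake and recycling, 6 of water, ion and pH balance, 3 of cell junctions, 6 metabolic enzymes and carriers, 4 secreted or cell-surface proteins, and 5 receptors, regulators or intracellular signalling proteins.

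RNA came from mice in which interleukin-34 (IL-34), a ligand of the receptor CSF1R on which microglia depend, was removed by 1 of 2 routes. In the genotype experiment 3 Il34 knockout (KO) animals, 1 male and 2 females, were set against 4 heterozygous (Het) animals, 2 of each sex, so these controls carried 1 intact and 1 deleted Il34 copy. In the antibody experiment 4 wild-type animals given a blocking antibody to IL-34 (anti-IL34), 3 males and 1 female, were set against 4 wild-type controls, 2 of each sex, that received anti-gp120 in its place. For each of the 15 animals 1 hemisphere was used for whole-forebrain RNA, and the other for a library of cells pulled out with CD11b beads, called the isolate below. Animal numbers were reused between the experiments, so an animal is named here by its arm and number. All animals were perfused with saline, a step meant to flush blood from the vessels. How far it did so was not tested. The labels give no age, no antibody dose or schedule, and no cell type in which Il34 was deleted.

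Astrocytes clear glutamate and GABA from the synaptic cleft, turn glutamate into glutamine, buffer potassium and water through channels on their endfeet, and are joined to each other by gap junctions. When tissue is injured or inflamed they take up a reactive state whose best-known marks are more GFAP and vimentin filament. Microglia and astrocytes signal to each other, which makes the astrocyte genes a natural second readout where microglia markers fall. CD11b is a surface protein of microglia and other myeloid cells, and astrocytes do not carry it.

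The stretches upstream of 4 members are shown because of their forebrain values: S100b had the lowest p of the 32 after deletion, and Kcnj10, Gja1 and Gfap had the 3 lowest with the antibody. An upstream window in the RefSeq table (build GRCm38.p6) was found for 28 of the 32 members. Each line below holds the 250 bases before the listed start, 5′ to 3′ on the gene's strand, and none of these bases lies in an annotated exon. Capitals mark every match, on either strand, to 5 motifs: the TATA box (TATAAA), the GC box (GGGCGG), the box named for its letters CCAAT, the AP-1 site (TGANTCA) and the STAT site (TTCNNNGAA).
Gfap, chr11:102897201-102897450, minus strand: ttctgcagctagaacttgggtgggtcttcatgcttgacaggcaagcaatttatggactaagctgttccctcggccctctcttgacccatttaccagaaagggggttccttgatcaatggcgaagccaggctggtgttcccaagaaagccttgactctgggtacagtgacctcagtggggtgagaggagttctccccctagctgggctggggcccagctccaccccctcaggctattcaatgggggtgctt
Kcnj10, chr1:172340960-172341209, plus strand: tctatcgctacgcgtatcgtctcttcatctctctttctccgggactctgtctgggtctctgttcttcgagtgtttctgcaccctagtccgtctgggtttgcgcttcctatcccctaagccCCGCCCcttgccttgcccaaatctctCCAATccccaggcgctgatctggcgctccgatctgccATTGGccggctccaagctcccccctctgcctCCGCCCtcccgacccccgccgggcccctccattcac
Gja1, chr10:56377050-56377299, plus strand: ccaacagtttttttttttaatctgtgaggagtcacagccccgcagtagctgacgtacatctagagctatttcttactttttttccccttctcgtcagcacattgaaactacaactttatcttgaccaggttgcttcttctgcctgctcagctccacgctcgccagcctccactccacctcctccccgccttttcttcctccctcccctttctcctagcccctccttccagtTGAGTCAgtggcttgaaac
S100b, chr10:76253586-76253835, plus strand: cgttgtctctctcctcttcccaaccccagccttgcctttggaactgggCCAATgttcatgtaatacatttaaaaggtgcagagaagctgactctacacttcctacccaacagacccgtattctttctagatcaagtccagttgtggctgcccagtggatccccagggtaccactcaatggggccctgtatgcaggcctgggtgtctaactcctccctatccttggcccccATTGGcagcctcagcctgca

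Kcnj10 held 2 GC boxes and 2 CCAAT boxes, S100b 2 CCAAT boxes, Gja1 1 AP-1 match that ended 13 bases before the start, and Gfap none of the 5. Over all 34 windows of the 28 members, some genes having more than 1 start, GGGCGG was present in 16 (47.1%), against 32.7% of all 32851 windows in the table. CCAAT was present in 14 (41.2%, against 33.8%), TATAAA in 6 (17.6%, against 12.4%) and TTCNNNGAA in 5 (14.7%, against 7.02%). TGANTCA was present in 1 (2.94%, against 6.75%), the window of Gja1. These are descriptions of letters in fixed windows and say nothing of binding. By GENCODE M21 on GRCm38, Gfap (ENSMUSG00000020932) spans chr11:102887336-102900912, so the window printed for it lies in an intron of the longer gene model.

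Libraries held 15.1 to 75.2 M counts (M, mega). Il34 itself, the check of the genotype labels, was at 18.6 to 23.2 counts per mega-count (CPM) in the 4 Het forebrains and 6.55 to 8.31 CPM in the 3 KO forebrains, a log2 change of -1.50 (SE 0.10, edgeR adjusted p = 1.01e-05). In isolates Il34 was low and did not separate the genotypes, at 5.06 to 10.3 CPM in Het and 5.17 to 7.04 CPM in KO (-0.27, SE 0.27, adjusted p = 0.493), so the check rests on the forebrains. Of 14 microglia markers that could be tested in forebrain, 13 fell in KO and 12 with anti-IL34, where 0.62% and 0.717% of all genes passed. The isolates carried the myeloid label they were given: all 14 tested microglia markers were higher in control isolates than in control forebrain, with a median of 5.61 on the log2 scale, and all 13 tested neuron markers were lower, with a median of -3.67. In these bulk samples, fewer cells of a type and less RNA per cell cannot be told apart.

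In the forebrain of the 8 control animals, the members took steady and very unequal shares. Levels of different genes are compared here as CPM per kilobase of exon, with the limit that reads appear to have been counted over whole gene spans. On that scale Slc1a2, the main glutamate transporter, was first at 434, and Glul, which makes glutamine from glutamate, was the second at 329. Aldoc, a glycolytic enzyme typical of astrocytes, followed at 113, Ndrg2, a cytoplasmic protein of astrocytes, at 107 and Atp1b2, a sodium pump subunit, at 106. Cbs, an enzyme of sulphur amino acid metabolism, was the last of the 32 at 3.79, just below Vim at 5.11. Gfap, the filament gene by which astrocytes are most often stained, stood in place 17 at 23.4.

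Taken as a sum, the 32 genes made up 1.07 to 1.17% of all counts in Het forebrain, 1.04 to 1.07% in KO, 1.07 to 1.22% with anti-gp120 and 1.00 to 1.11% with anti-IL34. Slc1a2 alone accounted for 52.2 ± 1.15% of that sum in Het forebrain (SD, n = 4). Replicates lay close together in forebrain, where the median coefficient of variation over the members was 6.02% in Het and 4.98% in KO. It was 12.6% with anti-gp120 and 8.09% with anti-IL34. In isolates the same median was 43.4% in Het and 55.5% with anti-gp120, against 10.1% in KO and 24.0% with anti-IL34. The control isolates therefore differed from each other far more than the control forebrains did.

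Astrocyte transcripts were not removed by the CD11b isolation. Of the 32 members, 21 were higher in isolates than in forebrain of the 8 control animals and none was lower (edgeR quasi-likelihood F test, adjusted p under 0.05). Between these tissues 84.1% of all genes passed the test and 40.8% passed as higher, so a high share of calls was the rule here. The members' median log2 difference was 0.60, against -0.04 for all genes tested. Total-count scaling put the all-gene median at -0.14 and the members' median at 0.50, and DESeq2 put them at 0.16 and 0.62.

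Vim stood far apart from the rest. It was at 23.7, 23.0, 22.9 and 23.7 CPM in Het forebrain and at 225.1, 298.8, 253.2 and 235.8 CPM in the isolates of the same 4 animals. With anti-gp120 it was at 29.0, 22.9, 24.6 and 24.0 CPM in forebrain and at 355.5, 200.6, 281.2 and 268.9 CPM in isolates. No isolate came near any forebrain value, and the log2 difference was 3.46 (SE 0.11, edgeR adjusted p = 8.24e-14), an 11.0-fold rise. Vimentin is also made by endothelial, mural and immune cells. All 12 endothelial markers were higher in isolates than in forebrain (median 2.00), as were 10 of 12 mural and fibroblast markers, with 1 lower, and all 7 neutrophil and monocyte markers tested (medians 1.16 and 5.74). The part of these cells in the Vim level was not tested.

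Gfap was higher in the isolate than in the forebrain of all 8 animals, by a smaller margin. In Het animals it went from 103.3, 90.8, 92.7 and 87.0 CPM in forebrain to 191.2, 161, 149.2 and 111.7 CPM in isolates. With anti-gp120 it went from 102.7, 97.7, 105 and 108.9 CPM to 163.6, 483.8, 140.8 and 160.7 CPM, the high value being that of animal 15. The log2 difference was 0.95 (SE 0.22, edgeR adjusted p = 0.000833), and 0.70 (SE 0.10, adjusted p = 1.02e-05) without animal 15.

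**Figure D1:**
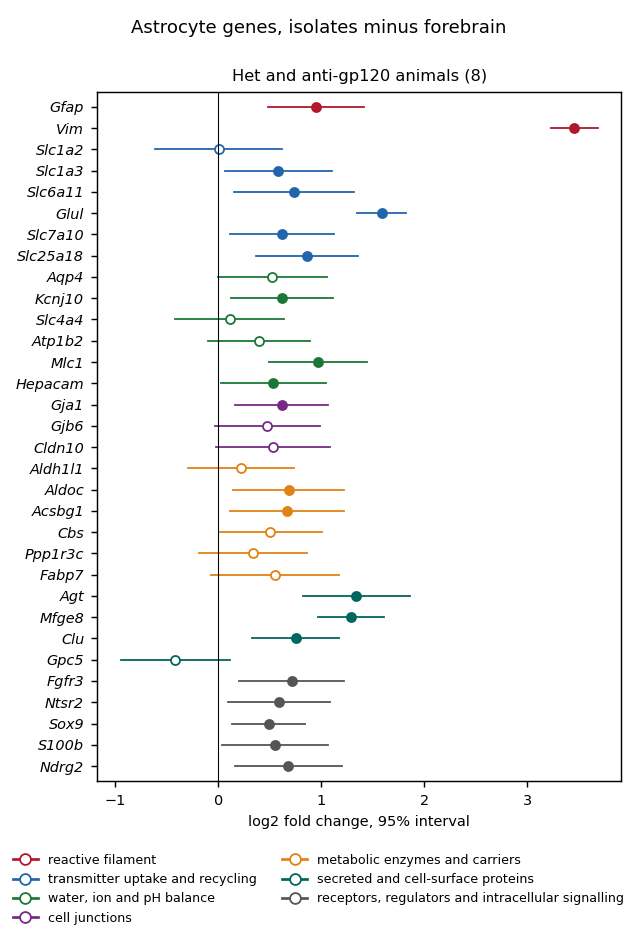
Log2 fold change of each astrocyte gene in isolates over forebrain of the 8 control animals (x axis, with 95% intervals; positive, higher in isolates), coloured by role, with filled points for genes past an adjusted p of 0.05. Vim stands alone at 3.46, Glul, Agt and Mfge8 follow between 1.29 and 1.59, and Slc1a2 sits at 0.00.

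Among the transmitter genes 5 of 6 passed as higher in isolates, in the fit that did not pair the tissues by animal. Glul rose most, from 966 ± 34.5 to 2608 ± 177 CPM in Het animals and from 1221 ± 151 to 4049 ± 720 CPM with anti-gp120 (SD, n = 4 each). Its log2 difference was 1.59 (SE 0.11, adjusted p = 1.33e-09). Within Het isolates Glul ran from 2451 to 2853 CPM, while Slc1a2 ran from 1983 to 7934 CPM. The part of other cell types in the Glul level was not tested. Slc25a18, a mitochondrial glutamate carrier, differed by 0.86, Slc6a11, a GABA transporter, by 0.74, Slc7a10, a serine and glycine carrier, by 0.62 and Slc1a3, the second glutamate transporter of astrocytes, by 0.58.

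Slc1a2 did not follow them. It was at 5665 ± 305 CPM in Het forebrain and 4892 ± 2446 CPM in Het isolates, and at 5737 ± 252 and 6760 ± 4656 CPM with anti-gp120 (SD, n = 4 each). Only 3 of 8 isolates exceeded their own forebrain. For Slc6a11, Slc7a10 and Slc25a18 it was 5 of 8, for Slc1a3 6 of 8 and for Glul 8 of 8. The log2 difference was 0.00 (95% interval -0.62 to 0.62), which leaves room for changes of either sign. Its share of the member sum was 52.2% in Het forebrain and 34.2% in Het isolates, while the share of Glul was 8.90% and 21.1%.

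Of the other roles, all 5 receptors, regulators and signalling genes passed as higher. These were Fgfr3, a growth factor receptor (0.71), Ndrg2 (0.68), Ntsr2, a neurotensin receptor (0.59), S100b, a calcium-binding protein (0.55), and Sox9, a transcription factor of the astrocyte lineage (0.49). S100b was higher in the isolate of 5 of 8 animals, and Fgfr3, Ndrg2, Ntsr2 and Sox9 in that of 6 of 8. Of the secreted and surface proteins, Agt, the precursor of angiotensin, differed by 1.34, Mfge8, which bridges dying cells to phagocytes, by 1.29 and Clu, an extracellular chaperone, by 0.75. Gpc5, a surface proteoglycan, was the only member with a negative value, -0.42 (SE 0.25, adjusted p = 0.129).

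Of the water, ion and pH genes, 3 of 6 passed: Mlc1, an endfoot membrane protein (0.97), Kcnj10, the inward rectifier potassium channel (0.62), and Hepacam, an adhesion protein that binds MLC1 (0.54). Mlc1 was higher in the isolate of 8 of 8 animals, and Kcnj10 and Hepacam in that of 5 of 8. Aqp4, the endfoot water channel, had 0.53 (adjusted p = 0.0603), and Slc4a4, a sodium and bicarbonate carrier, 0.11 (adjusted p = 0.677). Of the junction genes only Gja1, connexin 43, passed (0.62); Gjb6, connexin 30, had 0.48 (adjusted p = 0.0752) and Cldn10, a claudin, 0.53 (adjusted p = 0.0665). Of the metabolic genes Aldoc (0.68) and Acsbg1, a fatty acid activating enzyme (0.66), passed. Aldh1l1, a folate enzyme widely used to mark astrocytes, had 0.22 (adjusted p = 0.403).

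Because each isolate shares its animal with a forebrain, the contrast was also fitted with the animal as a replicate block. Then 13 of 32 members passed, 12 higher and 1 lower, beside 83.4% of all genes. The lower one was Gpc5, at -0.56 (SE 0.24, adjusted p = 0.0472). Vim, Glul, Gfap, Mfge8, Agt, Mlc1, Clu, Slc25a18, Fgfr3, Gja1, Sox9 and Ndrg2 were the 12. The count was 12 without Het animal 1 (83.6% of all genes) and 13 without anti-gp120 animal 15 (84.3%).

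**Figure D2:**
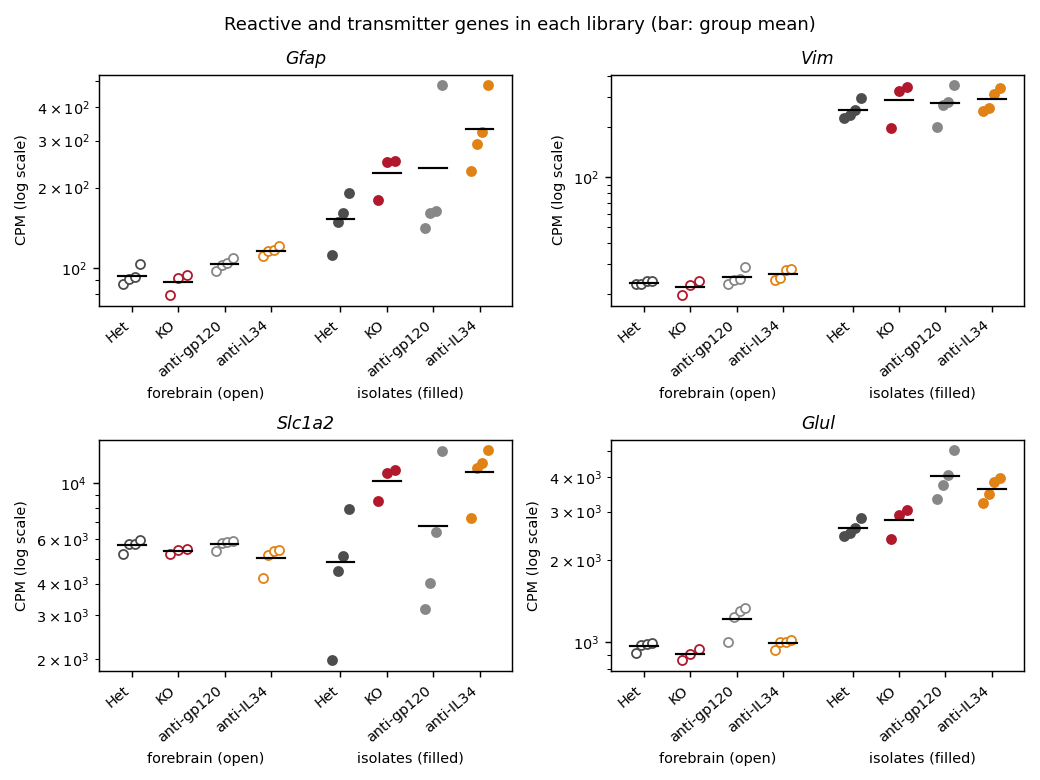
Normalised counts per mega-count (y axis, log scale) of Gfap, Vim, Slc1a2 and Glul in each library, by arm, with open points for forebrain, filled points for isolates and a bar at each group mean. Slc1a2 spreads widely in the isolates of both control arms and Glul does not in Het isolates, at 2451 to 2853 CPM; all Vim and Glul isolates lie above all forebrain libraries.

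Deletion of Il34 left the forebrain astrocyte genes near their control levels. None of the 32 passed the test in KO against Het forebrain, where 0.62% of all genes passed. Without adjustment 7 members had a p under 0.05, as did 7.45% of all genes (2 members without Het animal 20 and 12 without Het animal 23), and DESeq2 called 1, S100b, beside 0.56% of all genes. The fit with no filter on low counts called S100b and Agt, beside 1.24%. The median log2 change was -0.07, against 0.00 for all genes, and 31 of 32 values were negative. Most were small: the median standard error was 0.05, and apart from Agt, at -0.75, the lowest value was that of S100b.

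Gfap was at 103.3, 90.8, 92.7 and 87.0 CPM in Het forebrain and at 79.4, 91.7 and 94.2 CPM in KO forebrain. Vim was at 23.7, 23.0, 22.9 and 23.7 CPM in Het and at 19.6, 22.4 and 23.7 CPM in KO. The arms overlapped for both. The log2 change of Gfap was -0.04 (95% interval -0.16 to 0.08) and that of Vim -0.06 (95% interval -0.19 to 0.07).

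S100b came nearest to the threshold. It was at 49.9, 52.4, 48.2 and 48.5 CPM in Het forebrain and at 41.0, 41.9 and 43.9 CPM in KO. Every KO library was below every Het library, and the log2 change was -0.22 (SE 0.05, edgeR adjusted p = 0.0721), with 0.0385 in DESeq2. S100b is also expressed by oligodendrocytes. Of 15 oligodendrocyte lineage genes, 7 fell in the same forebrains and none rose, and the median log2 change over the list was -0.29. The part of oligodendrocytes in the S100b value was not tested. S100b also overlaps Dip2a, a coding gene on the other strand, whose reads may be counted with it.

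Of the other members with the lowest p-values, Clu was at 315.1, 303, 284.2 and 302.1 CPM in Het and at 283.9, 264.3 and 267.7 CPM in KO forebrain (-0.13, SE 0.05, adjusted p = 0.50). Hepacam had a log2 change of -0.14 (SE 0.05, adjusted p = 0.52), Agt -0.75 (SE 0.30, adjusted p = 0.601) and Atp1b2 -0.11 (SE 0.04, adjusted p = 0.603). The Agt value rested on uneven controls: Het forebrain ran 8.66, 21.7, 13.1 and 7.91 CPM, and KO 5.61, 7.14 and 10.0 CPM, with overlap. Without Het animal 23 it passed, at -1.04 (adjusted p = 0.0495), the only member to do so in a fit that called 0.614% of all genes. In all, 8 of the 32 members were lower in every KO than in every Het forebrain and none was higher, where 6.24% of all genes were lower and 2.09% higher in this way. They were Kcnj10, Atp1b2, Hepacam, Gja1, Clu, Gpc5, Sox9 and S100b. Only S100b of these passed in any fit that kept all 7 libraries, in DESeq2 and with no filter on low counts.

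**Figure D3:**
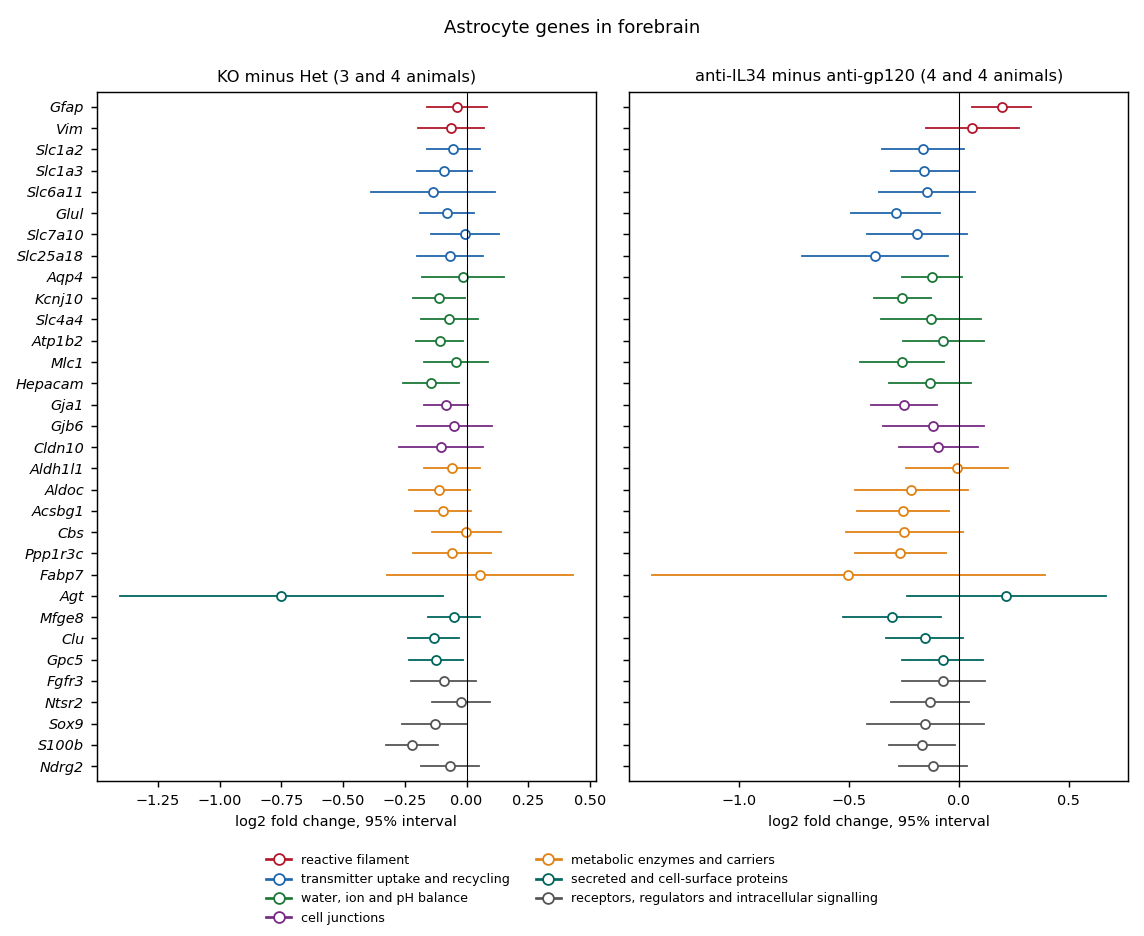
Log2 fold change of the 32 astrocyte genes in forebrain (x axis, with 95% intervals; each panel has its own scale) for KO minus Het and for anti-IL34 minus anti-gp120, coloured by role; no point is filled because none passed an adjusted p of 0.05. Values gather just below 0 on both sides, and Gfap lies above 0 with the antibody, at 0.20, and at -0.04 with the deletion.

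The antibody gave a like picture in forebrain, with Gfap on the other side of 0. None of the 32 passed, where 0.717% of all genes did. Without adjustment 11 had a p under 0.05, where 4.86% of all genes did (7 members without anti-gp120 animal 7 and 17 without animal 15), and DESeq2 called 1, Kcnj10, beside 0.674% of all genes. With no filter on low counts Slc25a18, Fabp7, Glul and Mfge8 passed as lower (1.15% of all genes), and with all 15 forebrain libraries in the fit Kcnj10 and Gja1 did (1.03%). The median log2 change of the 32 was -0.15, and 29 were negative. The 3 positive values were those of Gfap, Vim and Agt.

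Gfap was at 102.7, 97.7, 105 and 108.9 CPM with anti-gp120 and at 116.1, 117, 111.2 and 121 CPM with anti-IL34. Each treated forebrain was above each control, and Gfap was the only member of which this held; 0.776% of all genes did so. The log2 change was 0.20 (SE 0.06, edgeR adjusted p = 0.445), so that the difference of 1.14-fold missed the threshold over all genes. Vim was at 29.0, 22.9, 24.6 and 24.0 CPM against 24.2, 27.6, 28.2 and 24.7 CPM, with overlap, and its log2 change was 0.06 (SE 0.10).

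Kcnj10 had the lowest p on the negative side. It was at 238.1, 202.1, 214.1 and 213.6 CPM with anti-gp120 and at 186.6, 180.1, 175.4 and 179.6 CPM with anti-IL34, without overlap. Its log2 change was -0.26 (SE 0.06, edgeR adjusted p = 0.122), with an adjusted p of 0.0122 in DESeq2. Gja1 was at 230.1, 215.1, 239.5 and 237.2 CPM against 184.6, 203.3, 171.8 and 199.6 CPM, also without overlap (-0.25, SE 0.07, adjusted p = 0.289). Ppp1r3c, which ties a phosphatase to glycogen, was the third member without overlap, at -0.27. Among all genes 2.67% were lower in this way.

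Glul and Mfge8 completed the 5 lowest p-values. Glul was at 1306, 1004, 1235 and 1338 CPM with anti-gp120 and at 938.1, 1001, 1000 and 1022 CPM with anti-IL34 (-0.29, SE 0.09, adjusted p = 0.502). Mfge8 was at 65.9, 49.4, 64.8 and 65.8 CPM against 56.2, 49.8, 51.1 and 42.0 CPM (-0.30, SE 0.10, adjusted p = 0.582). In both genes the control forebrain of animal 15 lay among the treated ones and the other 3 controls above all of them. Without animal 15 the 3 members that passed were Slc25a18, Aldoc and Mlc1, in a fit that called 0.724% of all genes.

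Wider lists of reactive genes were read beside 0.62% of all genes past the threshold in KO forebrain and 0.717% with anti-IL34. Of 9 pan-reactive genes tested in KO forebrain none passed, and neither did any of 11 genes of the A1 set or 10 of the A2 set, names given to astrocyte states induced by inflammation and by ischaemia. With anti-IL34, 1 of 8 pan-reactive genes rose: Cxcl10, an interferon-induced chemokine, from 0.338 ± 0.296 to 2.61 ± 1.54 CPM (SD, n = 4 each; log2 change 2.55, SE 0.43, adjusted p = 0.0205). Of 11 A1 genes 1 rose, the class I histocompatibility gene H2-D1, from 14.3 ± 2.81 to 21.4 ± 2.64 CPM (0.52, SE 0.10, adjusted p = 0.0408). Both genes are made by many cell types. None of 9 A2 genes passed. The medians of the pan-reactive, A1 and A2 genes were -0.18, -0.11 and -0.13 after deletion and 0.27, 0.36 and 0.00 with the antibody, with 7 of 8 pan-reactive and 8 of 11 A1 genes positive in the latter. Of 25 further astrocyte genes none passed in either experiment, with medians of -0.07 for the deletion and -0.16 for the antibody.

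In the isolates the astrocyte genes took a larger share of counts in KO than in Het animals. The 32 genes made up 2.09, 1.38, 0.744 and 1.43% of counts in the 4 Het isolates and 2.51, 2.64 and 2.48% in the 3 KO isolates. With anti-gp120 they made up 1.03, 2.61, 1.70 and 1.19%, and with anti-IL34 2.43, 1.76, 2.43 and 2.89%. Each KO isolate was above each Het isolate. The antibody arms overlapped, since animal 15 of the controls was above 3 of 4 treated isolates.

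Gene by gene, none of the 32 passed in KO against Het isolates, where 5.37% of all genes did. Without adjustment 19 had a p under 0.05, where 32.6% of all genes did. That count was 2 to 6 without Het animal 20 or 23 or any 1 KO animal, and 29 without Het animal 1 or 21. All 32 log2 changes were positive, and their median was 0.94, against 0.02 for all genes. In 26 of 32 members every KO isolate was higher than every Het isolate, where 17.7% of all genes were. The call depended on the libraries. DESeq2 called 14 members (12.6% of all genes), and the fit with no filter on low counts called 7 (6.78%). Without Het animal 1, 28 members passed (31.5% of all genes), and without Het animal 21, 21 did (17.2%). Without any other single animal no member and no other gene passed.

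Sox9 had the lowest p. It was at 49.8, 41.3, 27 and 42.5 CPM in Het and at 68.4, 57.7 and 72.4 CPM in KO isolates, without overlap (0.69, SE 0.21, edgeR adjusted p = 0.101). Aqp4 was at 343.7, 201.1, 151.3 and 212.4 CPM against 376.6, 423.5 and 496 CPM (0.97, SE 0.30, adjusted p = 0.103). S100b was at 97.7, 65.0, 35.7 and 72.6 CPM against 146.1, 125.6 and 121.8 CPM (0.95, SE 0.32, adjusted p = 0.117), on the opposite side of 0 from its forebrain value. Gja1 was at 446.2, 319.7, 167 and 327.9 CPM against 632, 597.6 and 590.9 CPM (0.94, SE 0.32, adjusted p = 0.119). Mfge8 was at 168.1, 131, 83.5 and 136.4 CPM against 199, 236.8 and 195.5 CPM (0.71, SE 0.24, adjusted p = 0.119).

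In these genes Het animal 1 was the highest control and animal 21 the lowest. The same order held for Slc1a2, which was at 7934, 4495, 1983 and 5155 CPM in Het and at 11310, 10950 and 8487 CPM in KO isolates (1.09, SE 0.52, adjusted p = 0.187).

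Gfap was at 191.2, 161, 149.2 and 111.7 CPM in Het and at 180.4, 251.7 and 250.4 CPM in KO isolates, where KO animal 24 lay below Het animal 1. Its log2 change was 0.63 (SE 0.20, adjusted p = 0.108). Vim was at 225.1, 298.8, 253.2 and 235.8 CPM against 196.6, 346.3 and 328.4 CPM, with overlap, and its log2 change was 0.21 (SE 0.23, adjusted p = 0.54). Glul was at 2615, 2512, 2451 and 2853 CPM against 3044, 2927 and 2385 CPM (0.10, SE 0.25, adjusted p = 0.786), and Agt had 0.18 (SE 0.32). Glul, Agt and Vim had the 3 smallest values of the 32.

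**Figure D4:**
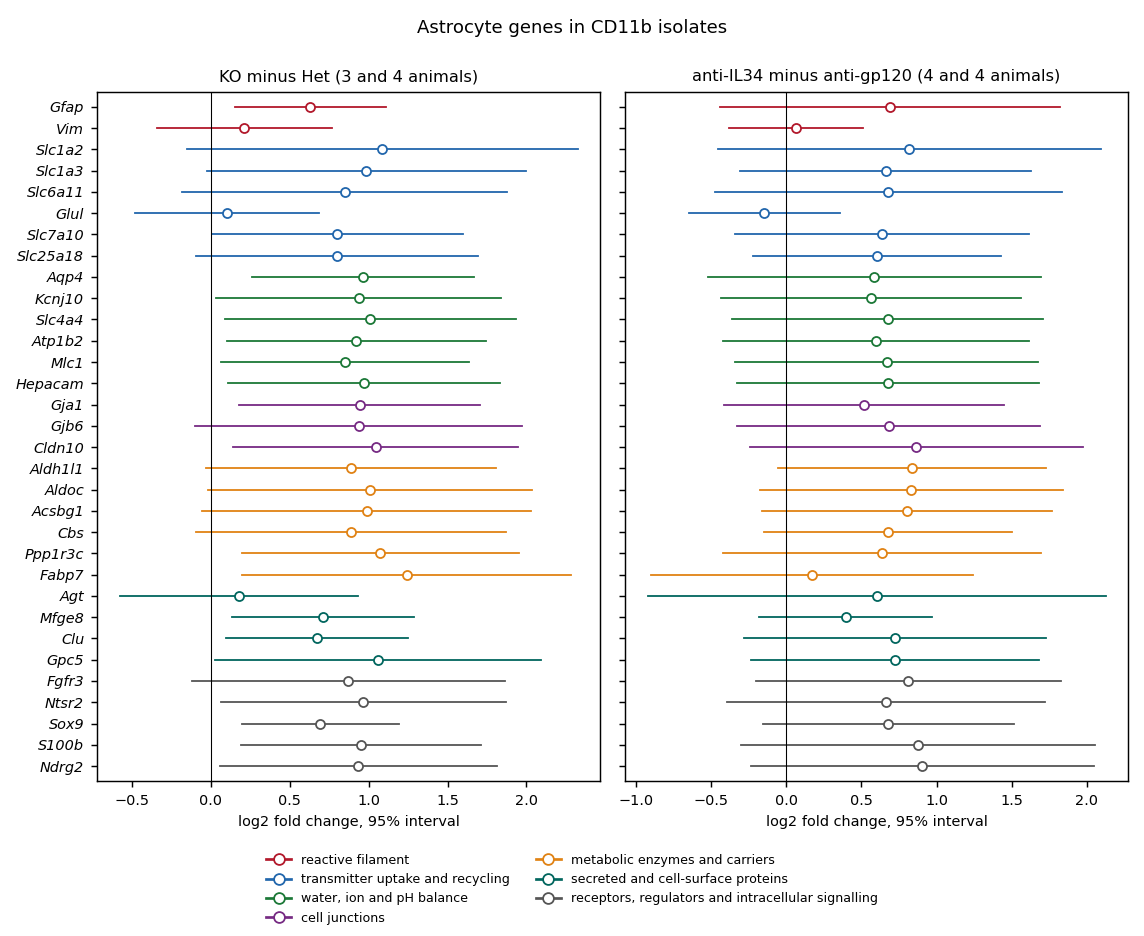
Log2 fold change of the 32 astrocyte genes in isolates (x axis, with 95% intervals) for KO minus Het and anti-IL34 minus anti-gp120, coloured by role; no point is filled because none passed an adjusted p of 0.05. All values but that of Glul with the antibody, at -0.14, lie above 0, and Glul, Vim and Agt lie nearest to 0 after deletion.

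With the antibody, none of the 32 passed in isolates and none had an unadjusted p under 0.05 in edgeR, where 0.626% of all genes passed and 25.9% had such a p. DESeq2 called no member, beside 6.27% of all genes, and neither did the fit with no filter on low counts, beside 2.75%. The median log2 change was 0.67, and 31 values were positive. This median rested on single libraries: it was 0.29 without anti-gp120 animal 1 and 1.12 without anti-IL34 animal 11. Aldh1l1 had the lowest p: it was at 36.3, 112.8, 71.8 and 45.0 CPM with anti-gp120 and at 125.2, 86.8, 111.8 and 136.3 CPM with anti-IL34 (0.83, SE 0.39, adjusted p = 0.207). Acsbg1 was at 86.6, 278.2, 171.1 and 100.7 CPM against 319.9, 192.5, 265.3 and 312.1 CPM (0.80, SE 0.42, adjusted p = 0.237). Aldoc had 0.83 (SE 0.44), Cbs 0.67 (SE 0.36) and Sox9 0.68 (SE 0.36).

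In these genes the control isolate of animal 15 was as high as the treated ones. Without it 27 of 32 members passed, beside 40.4% of all genes, and the median log2 change was 0.96. Gfap was at 163.6, 483.8, 140.8 and 160.7 CPM against 322, 230, 290.4 and 484.3 CPM (0.69, SE 0.49), and Vim at 355.5, 200.6, 281.2 and 268.9 CPM against 260.1, 343.6, 314.8 and 248.6 CPM (0.07, SE 0.19). Glul was the only negative value, -0.14 (SE 0.22). No member had arms that did not overlap, where 4.75% of all genes were higher and 10.8% lower in every treated than in every control isolate.

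Among other cell types, only the microglia list had markers past the threshold in the same isolates. The summed level of the microglia markers was 14421 to 22698 CPM in Het and 5623 to 6630 CPM in KO isolates, and 14869 to 23313 CPM with anti-gp120 against 7420 to 12582 CPM with anti-IL34. All 14 microglia markers fell in KO isolates, beside 5.37% of all genes past the threshold, and 6 of 14 with the antibody, beside 0.626%. No gene passed in the KO fit without Het animal 20 or 23 or any 1 KO animal. In the antibody fit none passed without anti-IL34 animal 10 or anti-gp120 animal 7. Among the 15 isolates, the 3 lowest in astrocyte genes, Het animal 21 and anti-gp120 animals 1 and 8, were the 3 highest in microglia markers. Within its arm, anti-gp120 animal 15 kept this order, with the highest astrocyte share, 2.61%, and the lowest microglia sum, 14869 CPM. Against the KO and anti-IL34 isolates it did not. Its share was the third highest of the 15, but its microglia sum was above those of all 7. Neuron and oligodendrocyte markers were also at higher values where IL-34 was removed. The 13 tested neuron markers had a median log2 change of 0.99 in KO isolates and 0.94 with anti-IL34, and the 15 oligodendrocyte markers 0.86 and 0.67, with all values positive and none past the threshold. Endothelial markers had 0.07 and 0.15, mural and fibroblast markers 0.43 (12 of 12 positive) and 0.20 (9 of 12), and neutrophil and monocyte markers 0.31 (7 of 8) and 0.79 (8 of 9). Choroid plexus markers had -0.55 in KO isolates, with none of 10 positive, and 2.88 with anti-IL34, with all 6 tested positive. Their sum was 1717 to 4112 CPM in Het, 1158 to 3549 CPM in KO, 5.74 to 10.8 CPM with anti-gp120 and 8.16 to 2022 CPM with anti-IL34. None of them passed.

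The ratio of the astrocyte sum to the neuron marker sum did not go up with the astrocyte share. In forebrain it was 0.981 to 1.11 in Het, 0.942 to 0.971 in KO, 0.997 to 1.06 with anti-gp120 and 0.865 to 1.00 with anti-IL34. In isolates it was 5.36 to 7.78 in Het, 4.64 to 6.45 in KO, 5.19 to 6.84 with anti-gp120 and 3.87 to 4.98 with anti-IL34. The ratio to the oligodendrocyte sum was 1.22 to 2.47 in Het and 1.23 to 2.64 in KO isolates, with overlap, and 2.36 to 2.74 with anti-gp120 against 1.84 to 2.58 with anti-IL34. Against the neuron markers of the same libraries, the astrocyte genes were thus no higher in any isolate of the anti-IL34 arm than in any control isolate of that experiment, and the KO and Het ranges overlapped. The part of the lower microglia marker sum in the higher astrocyte values was not tested.

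**Figure D5:**
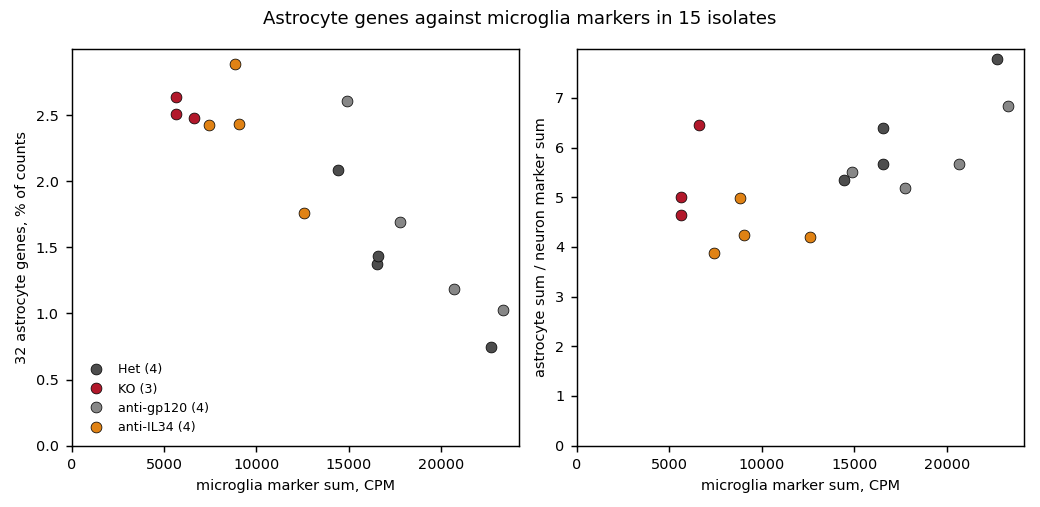
The 15 isolates by the sum of the microglia markers (x axis, CPM) against the share of counts in the 32 astrocyte genes (left) and the ratio of the astrocyte sum to the neuron marker sum (right), coloured by arm. The highest share, 2.89%, was that of anti-IL34 animal 24 and the lowest, 0.744%, that of Het animal 21, while anti-gp120 animal 15 lay high on the left at 2.61% with more microglia signal than any KO or anti-IL34 isolate. On the right the KO isolates ran from 4.64 to 6.45 and the Het isolates from 5.36 to 7.78.

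The wider reactive lists had lower medians than the members in isolates, a difference that was not tested. In KO isolates the medians were 0.14 over 11 pan-reactive genes, -0.31 over 11 A1 genes and 0.04 over 12 A2 genes, against 0.95 over the 25 further astrocyte genes. With anti-IL34 they were 0.22 (10 of 11 positive), 0.31 (7 of 11 positive) and -0.04 (5 of 12 positive), against 0.65. Of all these genes only Ggta1, a glycosyltransferase gene of the A1 set, passed in KO isolates, and none with the antibody. Ggta1 fell from 122.9 ± 14.7 to 58.95 ± 7.27 CPM (-1.04, SE 0.15, adjusted p = 0.0171). Most of these reactive genes were far above their forebrain level in control isolates, with 10 of 11 pan-reactive, 11 of 11 A1 and 10 of 12 A2 genes passing as higher, where 40.8% of all genes passed as higher and 84.1% in either direction, and medians of 2.84, 3.68 and 3.12. Cd14, one of the A2 set, is a monocyte and microglia receptor, so that not every gene of these lists is particular to astrocytes.

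Whether the effect of IL-34 loss differed between isolates and forebrain was tested as an interaction. For the deletion none of the 32 members passed, where 2.98% of all genes did, and 24 had an unadjusted p under 0.05, beside 31% of all genes (from 4 without KO animal 3 to 30 without Het animal 1); the median difference was 1.02, all 32 values were positive, and DESeq2 called 11, beside 10.9% of all genes. With no filter on low counts 14 members passed (4.82% of all genes), and without sex terms 7 (11.9%). Sox9 had 0.85 (SE 0.23, adjusted p = 0.0621), S100b 1.21 (SE 0.34, adjusted p = 0.0708), Clu 0.84 (SE 0.24, adjusted p = 0.0713), Gfap 0.71 (SE 0.22, adjusted p = 0.0859) and Gja1 1.06 (SE 0.34, adjusted p = 0.0867). For the antibody none passed, where 0.0924% of all genes did. Without adjustment 5 had a p under 0.05, beside 21.1% of all genes (from 0 without anti-gp120 animal 1 to 28 without animal 15), and DESeq2 called none, beside 3.36%. The fit with no filter on low counts called 14 members, all with positive values, beside 4.15% of all genes. Mfge8 had 0.69 (SE 0.27, adjusted p = 0.209), Acsbg1 1.05 (SE 0.43), Slc25a18 0.97 (SE 0.40), Cbs 0.92 (SE 0.39) and Aldoc 1.04 (SE 0.45). The median was 0.82, with 0.45 without anti-gp120 animal 1 and 1.26 without anti-IL34 animal 11. Vim had 0.32 (SE 0.26) and -0.02 (SE 0.24) in the 2 experiments, and Glul 0.21 (SE 0.18) and 0.14 (SE 0.22). For the deletion 29 members passed without Het animal 1 (28.5% of all genes) and 25 without Het animal 21 (16.3%). For the antibody 28 passed without anti-gp120 animal 15 (29.9%). With the animal as a replicate block no member passed in either experiment, where 0% of all genes did. Unadjusted, 28 members had a p under 0.05 for the deletion, beside 28.2% of all genes, and 14 for the antibody, beside 23% of all genes.

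The deletion and antibody effects, which share no animals, were also set against each other. In forebrain none of the 32 members differed between them, where 0.0101% of all genes did; 2 had an unadjusted p under 0.05, beside 3.07% of all genes, and DESeq2 called none, beside 0.0926%. With no filter on low counts Fabp7 and Agt passed, beside 0.352%. The 2 with an unadjusted p under 0.05 were Gfap, with a difference of -0.24 (SE 0.09, edgeR adjusted p = 1.00), and Agt, with -1.03 (SE 0.44). Gja1 with 0.16 (SE 0.08), Mfge8 with 0.24 (SE 0.13) and Glul with 0.20 (SE 0.11) came next. The forebrain value of Gfap was thus -0.04 after deletion and 0.20 after the antibody, and the difference between the values missed the threshold over all genes. In isolates none differed, where 0% of all genes did. No member had an unadjusted p under 0.05, beside 3.95% of all genes, and DESeq2 called none, beside 0.13%. The 5 lowest p-values were those of Fabp7, a fatty acid binding protein, with 1.11 (SE 0.70), Mfge8 with 0.34 (SE 0.35), Glul with 0.27 (SE 0.28), Gja1 with 0.47 (SE 0.53) and Ppp1r3c with 0.52 (SE 0.62). The median difference over the members was 0.25 with a median standard error of 0.60. It ranged from -0.02 without anti-gp120 animal 15 to 0.54 without anti-gp120 animal 1.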

How the data were processed

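The authors deposited whole-number read counts per gene, made with STAR 2.7.5c, featureCounts 1.6.3 and R 4.4.0 on GRCm38, per the submitters' processing notes; per the labels, libraries used a low-input SMART-Seq kit, which amplifies full-length cDNA. The deposited gene length, an annotation value and not a measurement, matched the whole gene span for 51183 of 51498 genes. The deposited TPM values were equal to counts over that length (largest relative deviation 5.63e-07) and entered no test. Reads of overlapping genes may be counted together; 11 members overlap another listed gene. The 6 count and 6 TPM columns that matched no sample were not used. The deposited sheet matched the labels for 30 of 30 libraries and gives each animal's number.

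The 32 members, their roles and all gene lists were chosen with earlier results of these data known. The tests on counts used edgeR 4.0.16 under R 4.3.3 (quasi-likelihood F test, TMM, default expression filter, sex as covariate, Benjamini-Hochberg over all genes, threshold 0.05); standard errors are the log2 change over the square root of F. All 32 members passed the filter in each comparison. Alternatives were RLE and total-count scaling, DESeq2 1.42.0, no filter, no sex terms, all 15 libraries of a tissue, a replicate block and leaving out each animal. The scripts were tested on simulated data. Printed CPM are TMM-scaled, and summed lists use total counts. Members are described by role, with the 5 lowest p-values per comparison where none passed. The 4 upstream stretches were picked after their values were seen. Chi-square per degree of freedom between replicates came to at least 5.48 over 42 pairs, and none looked like 1 library deposited more than once. Pairing comes from the animal numbers: deviations from group means correlated at a median of 0.173 over genes between the forebrain and isolate of an animal (0.0715 to 0.38, above 0.1 in 12 of 15), against -0.0589 between animals of an arm.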

Additional observations from a re-analysis of the deposited data

Results flagged for a closer look

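The spread of each member was checked in each group of 4 libraries, 192 pairs of gene and group in all, by the gap between the most extreme library and its nearest neighbour as a share of the group's whole range. Chance alone passes the limit of this check in about 1 of 20 groups, and 8 pairs passed it, no more than that rate would give. Members of 1 library can move together, so pairs from the same library are not separate events. Control animal 15 of the anti-gp120 arm gave 5 of them. In its isolate Gfap stood at 484 CPM against 141 to 164 CPM in the other 3 (gap share 0.934), and Aqp4 at 556 CPM against 143 to 198 CPM (0.869). In its forebrain Slc1a2 was low at 5363 CPM against 5812 to 5898 CPM (0.840), Atp1b2 at 350 CPM against 449 to 464 CPM (0.869) and Mfge8 at 49.4 CPM against 64.8 to 65.9 CPM (0.932). Fabp7, a fatty acid binding protein of radial glia and astrocytes, gave 2: it was high in the isolate of Het animal 1, at 118 CPM against 35.4 to 47.8 CPM (0.850), and in the forebrain of anti-IL34 animal 2, at 78.6 CPM against 20.9 to 28.6 CPM (0.867). Mfge8 was low in the isolate of anti-IL34 animal 11, at 163 CPM against 210 to 215 CPM (0.899).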

How the results depend on the processing

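Of 4320 single-gene results under alternatives, 4009 kept their direction and side of the threshold or stayed short of it, 266 came past it and 45 fell short, all in the contrast of isolates with forebrain; no called gene changed sign, while 148 short of the threshold did. Counts past the threshold are given below for members and then for all genes. KO forebrain had 1 member with DESeq2, and 2 and 381 without the filter on low counts. KO isolates had 14 and 3710 with DESeq2, 7 and 1993 without the filter, and 2189 genes without sex terms and 2734 with all 15 libraries. Antibody forebrain had 1 and 204 with DESeq2, 4 and 349 without the filter, and 2 and 204 with all 15 libraries. Antibody isolates had 9 genes with total counts, 1868 with DESeq2, 819 without the filter, 983 without sex terms and 988 with all 15 libraries. The replicate block left 13 members in the contrast of tissues. The tissue difference of the deletion effect had 11 and 3557 with DESeq2, 14 and 1569 without the filter, 7 and 2400 without sex terms, and 0 genes with the replicate block. That of the antibody effect had 14 and 1352 without the filter, and 48 genes with RLE, 5 with total counts, 1094 with DESeq2, 222 without sex terms and 0 with the block. The deletion and antibody effects differed in forebrain for 2 and 114 without the filter, 30 genes with DESeq2 and 4 without sex terms, and in isolates for 41 genes with DESeq2 and 1 without the filter. The replicate block changed no other count of members. Leaving out 1 animal at a time gave 0 to 1 members and 55 to 117 genes in KO forebrain, 0 to 28 and 0 to 5756 in KO isolates, 0 to 3 and 25 to 126 in antibody forebrain, 0 to 27 and 0 to 6905 in antibody isolates, and 12 to 26 and 15169 to 15984 between tissues. The tissue differences had 0 to 29 and 0 to 5688 for the deletion and 0 to 28 and 0 to 5565 for the antibody. The comparison of both effects had 0 to 0 members, with 2 to 33 genes in forebrain and 0 to 5 in isolates. The cause of these shifts was not tested. Precision differed between tissues: the median standard error of the members was 0.37 in KO isolates and 0.05 in KO forebrain.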
